A study of Rattus norvegicus with 7 samples.

Results

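The P2X family of ATP-gated ion channels was followed in the whole brain of rats bred for high or low alcohol preference. All 7 genes of the family, P2rx1 to P2rx7, were taken through the RefSeq transcript accession of each transcript probe, and they had 10 probes of the 33849 on the array. P2rx1, P2rx3 and P2rx6 had 2 probes each and the other 4 genes had 1. The family makes up 7 of the 6046 genes that could be named. The rats were adult males of Wistar origin from 2 selectively bred lines, alcohol preferring (P) and alcohol non-preferring (NP), that had never been given alcohol and were housed in pairs. Total RNA of the whole brain of each rat was hybridized to its own 1-colour array, giving 4 P rats (P 1 to P 4) and 3 NP rats (NP 2 to NP 4). A further NP array had been left out by the authors on quality grounds. A whole brain pools all regions and cell types. In such a sample fewer cells of a type and less RNA per cell cannot be told apart.

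P2X channels open when ATP outside the cell binds, and they let sodium and calcium in. Subunits assemble as trimers of 1 kind or of mixed kinds. P2X2, P2X4 and P2X6 are known from central neurons, P2X7 and P2X4 from microglia, P2X3 from sensory neurons, and P2X1 from smooth muscle and platelets. P2X4 channels are inhibited by ethanol in expression systems. Because the rats had not drunk alcohol, the comparison of the lines is one of levels before any drinking. ATP outside the cell also acts on P2Y receptors and is removed by ectonucleotidases.

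On chromosome 12 of the GRCr8 assembly P2rx4 and P2rx7 are direct neighbours among protein-coding genes and are read from the same strand. P2rx1 and P2rx5 are both on chromosome 10 and are not direct neighbours. The RefSeq promoter table of GRCr8 held start sites for 5 of the 7 genes. P2rx2 and P2rx5 had no entry. The 250 bases before the start are shown for the neighbours P2rx4 and P2rx7, both among the brighter members, and for P2rx3, the member closest to background, which has 2 listed starts. They lie at chr12:39523090-39523339, chr12:39594923-39595172, chr3:90531316-90531565 (P2rx3 start A) and chr3:90529310-90529559 (P2rx3 start B), all on the minus strand, and run 5′ to 3′ with each CG pair in capitals.
P2rx4: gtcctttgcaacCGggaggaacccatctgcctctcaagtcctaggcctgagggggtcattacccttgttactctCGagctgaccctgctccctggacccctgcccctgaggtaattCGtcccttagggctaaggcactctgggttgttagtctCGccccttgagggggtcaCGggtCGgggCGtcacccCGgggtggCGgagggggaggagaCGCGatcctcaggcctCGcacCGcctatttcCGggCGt
P2rx7: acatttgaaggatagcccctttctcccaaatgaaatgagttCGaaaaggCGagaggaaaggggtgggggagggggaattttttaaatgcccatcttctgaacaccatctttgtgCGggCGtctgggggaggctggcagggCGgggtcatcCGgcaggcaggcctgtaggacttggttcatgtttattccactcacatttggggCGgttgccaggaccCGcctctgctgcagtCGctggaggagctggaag
P2rx3 start A: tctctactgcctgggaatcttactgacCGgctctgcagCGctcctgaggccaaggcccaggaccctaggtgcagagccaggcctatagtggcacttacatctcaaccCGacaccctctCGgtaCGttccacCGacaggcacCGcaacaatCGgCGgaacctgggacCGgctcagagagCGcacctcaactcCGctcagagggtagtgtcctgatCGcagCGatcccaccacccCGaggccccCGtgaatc
P2rx3 start B: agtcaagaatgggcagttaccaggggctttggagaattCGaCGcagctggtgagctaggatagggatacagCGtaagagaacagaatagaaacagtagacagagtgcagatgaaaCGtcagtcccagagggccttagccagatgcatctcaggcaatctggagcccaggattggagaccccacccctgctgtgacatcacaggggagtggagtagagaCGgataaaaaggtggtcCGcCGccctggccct
The P2rx4 window held 15 CG pairs, more than 74.2% of the 33465 windows of this length, and the P2rx7 window held 9 (more than 61.5%). The P2rx3 windows held 16 (more than 76.2%) at start A and 7 (more than 54.8%) at start B, against a median of 5 over all windows. Searched on both strands, GGGCGG (the GC box) was in the windows of P2rx7 and P2rx3 start B and in 30.5% of all windows. CCAAT was in P2rx3 start B and in 34.0% of all windows. TATAAA was in none of the 4 windows and in 12.9% of all. These are descriptions of letters, and no measurement here bears on factors that may bind them.

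The 7 arrays had 26361 to 29091 transcript probes above background, with the highest number in NP 4 and the lowest in P 4. Scanning took 3 dates. Date 1 covered 2 rats of each line (NP 2 and NP 3, P 1 and P 2), date 2 covered only NP 4, and date 3 covered P 3 with P 4. Tested brain cell markers were counted when they carried neither an outlier flag nor a near-background flag on any array. These were 6 of 6 astrocyte genes, 9 of 9 microglia genes, 5 of 6 oligodendrocyte genes and 3 of 4 neuron genes. The same was so for 21770 of the 29003 tested probes of the array. Over the whole array limma called 84 of 29003 probes between P and NP, a call being an adjusted p under 0.05. Values below are log2 normalized signals, differences are P minus NP ± SE with the 95% interval of the difference, and levels of different probes cannot be set against each other.

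No P2X gene passed the test between the lines. Of the 10 probes, all of which could be tested, limma called 0, where 0.290% of all probes were called, and 0 had an unadjusted p under 0.05, where 11.5% of all probes did. The sign was split evenly, with 5 probes higher and 5 lower in P. The median size of the difference was 0.048 for the P2X probes, against 0.14 for all probes. Probes of P2rx1, P2rx3 and P2rx6 lay among the negative controls, so the smaller median is not read as stability of the genes. Adjusted p-values ran from 0.593 to 0.989. For 1 of the 10 probes, that of P2rx5, the values of the lines did not overlap, and this was so for 13.3% of all probes with 7 values.

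**Figure D1:**
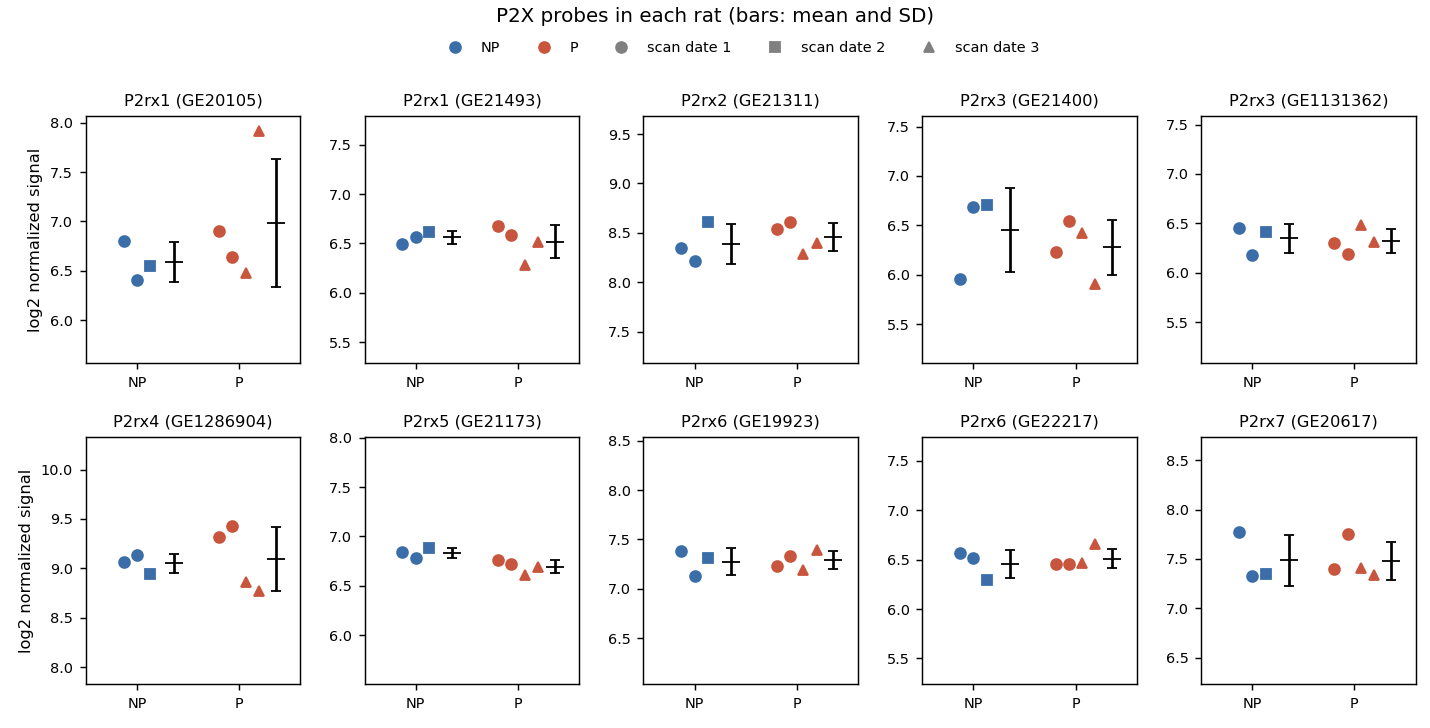
Log2 normalized signal (y axis, each panel spanning the same range around its own mean) of each P2X probe in the 3 NP and 4 P rats; each point is 1 rat, the point shape gives the scan date, and the bar beside each line is the mean with its SD. The lines overlap for all probes but the P2rx5 probe, P2rx4 splits within P by scan date, and P2rx1 probe GE20105 has a lone high value of 7.91 in P 4.

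P2rx4 encodes the subunit that is common in brain and is known for fast calcium entry. Its probe GE1286904 was the clearest of the family, brighter than at least 99.2% of the negative control spots on every array, with a background-subtracted intensity 6.99 to 9.89 times the local background. It read 9.07, 9.14 and 8.95 in NP 2, NP 3 and NP 4, and 9.32, 9.43, 8.86 and 8.77 in P 1 to P 4. The NP rats thus lay in the middle, with P 1 and P 2 above them and P 3 and P 4 below. The means were 9.05 ± 0.096 (SD, n = 3) in NP and 9.09 ± 0.32 (SD, n = 4) in P. The difference was 0.045 ± 0.17 (interval -0.33 to 0.43, adjusted p = 0.932), a fold of 1.03 with an interval from 0.793 to 1.34.

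The 2 pairs of P rats belong to different scan dates. P2rx4 was higher in P 1 and P 2 (date 1, mean 9.37) than in P 3 and P 4 (date 3, mean 8.82) by 0.55 ± 0.13 (interval 0.27 to 0.83, adjusted p = 0.0170 by limma). It was the only P2X probe of the 10 called in this contrast, in which 16.7% of all probes were called. The call was lost with plain background subtraction (0.61, adjusted p = 0.0685), with median scaling (0.37, adjusted p = 0.0623), in the authors' log2 values (0.59, adjusted p = 0.0720) and without P 2 (0.50, adjusted p = 0.105), P 3 (0.60, adjusted p = 0.0532) or P 4 (0.51, adjusted p = 0.0585). Except with median scaling, the difference in these settings was about as large as in the full fit. Before any scaling between arrays the background-subtracted intensities did not order by date: they were 535 and 447 in P 1 and P 2 and 554 and 475 in P 3 and P 4. Without that scaling, an alternative chosen after seeing the data, the date difference of P2rx4 was -0.073 (adjusted p = 0.757) while the median of all probes moved to -0.38, so that relative to the median P2rx4 stood at 0.31. The date and the rats scanned on it cannot be told apart here.

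**Figure D2:**
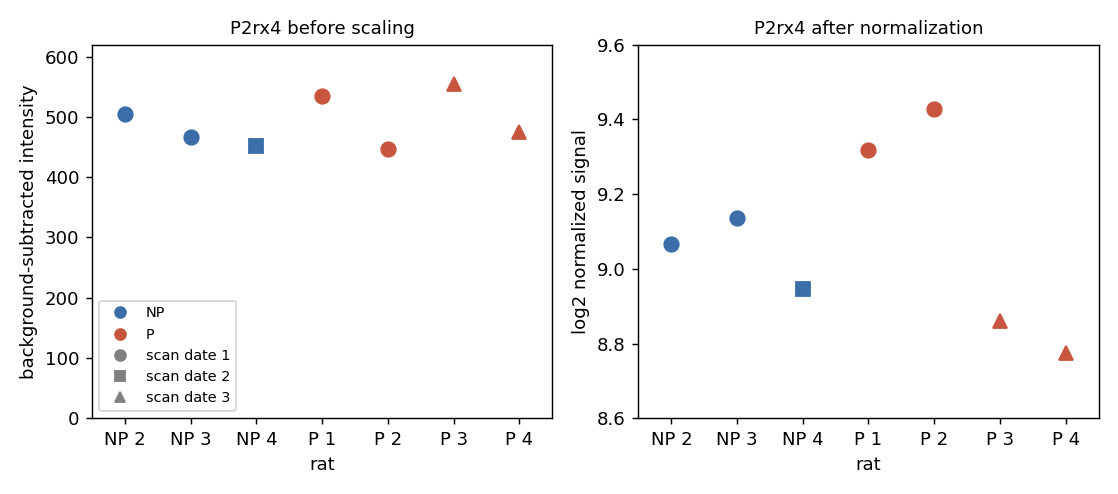
The P2rx4 probe in each rat (x axis) as background-subtracted intensity before scaling (left, linear axis from 0) and as log2 normalized signal (right); colour gives the line and shape the scan date. Before scaling, P 1 and P 2 (535 and 447) are mixed with P 3 and P 4 (554 and 475), and after normalization they lie above them.

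Of 55 tested cell type markers 7 were called in this contrast (12.7%), where 16.7% of all probes were called. The array-wide count of calls depended strongly on the processing. It was 4834 in the full fit, 4 for the authors' log2 values, 575 after plain background subtraction and 6904 after median scaling. The marker calls given here are those of the full fit. Outside microglia the called markers were Nefm, a neurofilament gene of neurons, at -1.21 (adjusted p = 0.00410), and Kdr, a growth factor receptor of endothelium, at 0.83 (adjusted p = 0.00678). The astrocyte genes Gfap at 0.71 (adjusted p = 0.00822) and Aldh1l1 at 0.56 (adjusted p = 0.0287) were also called. Their list medians were 0.035 for neurons, 0.24 for endothelium and 0.072 for astrocytes. In the neuron and astrocyte lists some uncalled genes lay on the other side of 0 from the called ones, and some on the same side. Of 9 tested microglia genes 3 were called between the same P rats: Cd68, a lysosomal glycoprotein of phagocytes, at 0.60 (adjusted p = 0.0177), Itgam, an integrin of myeloid cells, at 0.43 (adjusted p = 0.0418), and Aif1, a calcium-binding protein of microglia, in the other direction at -0.75 (adjusted p = 0.0282). The list median was -0.011. The summed normalized signal of the 9 genes ran from 6571 to 6614 in P 1 and P 2 and from 6621 to 6650 in P 3 and P 4, against 6315 to 7235 over the NP rats. Between the lines 0 of the 9 were called, and Aif1 had the smallest p (-0.81 ± 0.24, adjusted p = 0.302). Within scan date 1 Aif1 alone of the 9 was called (-1.23, adjusted p = 0.0141), where 6.40% of all probes were. The part of these cell types in the P2rx4 values was not tested.

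P2rx7, the subunit behind ATP-driven release of interleukin-1 from macrophages and microglia, had 1 probe, GE20617, brighter than at least 97.3% of negative controls on every array. It read 7.78, 7.33 and 7.35 in NP 2 to NP 4 and 7.40, 7.76, 7.41 and 7.34 in P 1 to P 4. Each line had 1 rat near 7.8 (NP 2 and P 2), and the others were close together. The difference was -0.0071 ± 0.15 (interval -0.35 to 0.33, adjusted p = 0.989). Over the 7 arrays P2rx7 and its neighbour P2rx4 had a Pearson r of 0.50 (exact permutation p = 0.251) and a Spearman rho of 0.29 (exact permutation p = 0.556). Without the 2 arrays farthest from the P2rx4 median, P 2 and P 4, r was -0.0090.

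P2rx2, a subunit of neurons that desensitizes slowly, was measured by probe GE21311, brighter than at least 98.4% of negative controls on every array. It read 8.35, 8.21 and 8.61 in NP 2 to NP 4 and 8.54, 8.61, 8.28 and 8.40 in P 1 to P 4. The ranges of the lines nearly coincided. The difference was 0.070 ± 0.14 (interval -0.23 to 0.37, adjusted p = 0.853). Within scan date 1, where 2 rats of each line can be compared, both P rats lay above both NP rats and the difference was 0.30 ± 0.13 (adjusted p = 0.174, unadjusted p by limma 0.0446). Within that date 6.40% of all probes were called and 0 of the 10 P2X probes. With scan date as a block 5.72% of all probes were called and again 0 of the 10. The value of P2rx4 within date 1 was 0.27 ± 0.13 (adjusted p = 0.204), and those of the other 8 probes ran from -0.082 to 0.17.

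P2rx6 encodes a subunit that forms channels mainly together with other P2X subunits. Its brighter probe, GE19923, read 7.39, 7.13 and 7.32 in NP 2 to NP 4 and 7.23, 7.33, 7.19 and 7.40 in P 1 to P 4, with the lines fully mixed. The difference was 0.012 ± 0.12 (interval -0.25 to 0.27, adjusted p = 0.977). The dimmer probe, GE22217, was above background on every array but brighter than only 56.6% to 88.7% of negative controls. Its difference was 0.050 ± 0.12 (interval -0.22 to 0.32, adjusted p = 0.884), and its highest value, 6.65 in P 4, stood apart from 6.46 to 6.47 in the other P rats.

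P2rx5 had the smallest SD of the 10 probes within each line (0.048 in NP and 0.065 in P). Its probe GE21173 read 6.84, 6.78 and 6.88 in NP 2 to NP 4 and 6.76, 6.72, 6.60 and 6.69 in P 1 to P 4. All 4 P rats lay below all 3 NP rats, by a narrow gap between 6.76 in P 1 and 6.78 in NP 3. The difference was -0.14 ± 0.11 (interval -0.38 to 0.096, adjusted p = 0.605), a fold of 0.907 with an interval from 0.770 to 1.07. It was -0.26 with plain background subtraction (adjusted p = 0.516) and -0.24 in the authors' log2 values (adjusted p = 0.527). The exact permutation test over the 35 ways to choose the arrays, two-sided, gave p = 0.0571, where the smallest it can give is 0.0286. Within scan date 1 the difference was -0.071 ± 0.12 (adjusted p = 0.743). The spot was above background on every array and brighter than 83.6% to 95.3% of negative controls.

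P2rx1, the subunit of smooth muscle and platelets, had the largest difference of the 10 probes, and that value rested on 1 spot. Probe GE20105 read 6.80, 6.41 and 6.55 in NP 2 to NP 4 and 6.90, 6.64, 6.48 and 7.91 in P 1 to P 4. Only P 4 stood apart. The difference was 0.40 ± 0.29 (interval -0.25 to 1.05, adjusted p = 0.593), and without P 4 it was 0.087 (adjusted p = 0.839). It was 0.65 with plain background subtraction (adjusted p = 0.624), 0.63 in the authors' values (adjusted p = 0.649) and 0.17 within scan date 1 (adjusted p = 0.545). The local background around that spot in P 4 was 138, higher than or equal to that of 99.9% of the spots of its array, whose median was 67.0. The spot carried no flag. The second probe, GE21493, did not show the high value: it read 6.52 in P 4, within the 6.28 to 6.68 of the other P rats, and had a line difference of -0.044 ± 0.13 (interval -0.32 to 0.23, adjusted p = 0.904). The part of the local background in the high value was not tested.

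The other markers of cells that carry P2X1 were few. The smooth muscle genes Tagln and Cnn1 had differences of 0.17 ± 0.11 (adjusted p = 0.546) and -0.18 ± 0.17 (adjusted p = 0.672). The platelet chemokine gene Pf4, the only one of the platelet list with a matched probe, was higher in all 4 P rats than in all 3 NP rats, by 0.46 ± 0.16 (adjusted p = 0.356, not called), as 13.3% of all probes did not overlap. Within scan date 1 it was 0.17 (adjusted p = 0.433), and P 1 and P 2 lay below P 3 and P 4 by 0.32 (-0.32 as date 1 minus date 3, adjusted p = 0.159).

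P2rx3, the subunit of sensory neurons that carry pain signals, lay at the level of the negative controls. Its probes GE21400 and GE1131362 were each above background on 4 of 7 arrays, 2 of each line, and brighter than 15.6% to 89.8% and 35.5% to 74.2% of negative controls. The difference was -0.18 ± 0.21 (interval -0.64 to 0.29, adjusted p = 0.751) for GE21400 and -0.027 ± 0.12 (interval -0.30 to 0.25, adjusted p = 0.945) for GE1131362. The value of GE21400 was -0.42 ± 0.19 without NP 2 (adjusted p = 0.530), -0.40 with plain background subtraction (adjusted p = 0.820), -0.34 in the authors' values (adjusted p = 0.848) and 0.061 within scan date 1 (adjusted p = 0.882). Of the sensory ganglion markers 5 of 6 tested were above background on all 7 arrays, as were 21770 of the 29003 tested probes. Of these markers 0 were called between the lines. Scn11a, a sodium channel of pain neurons, had the smallest p (0.33 ± 0.12, adjusted p = 0.368).

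**Figure D3:**
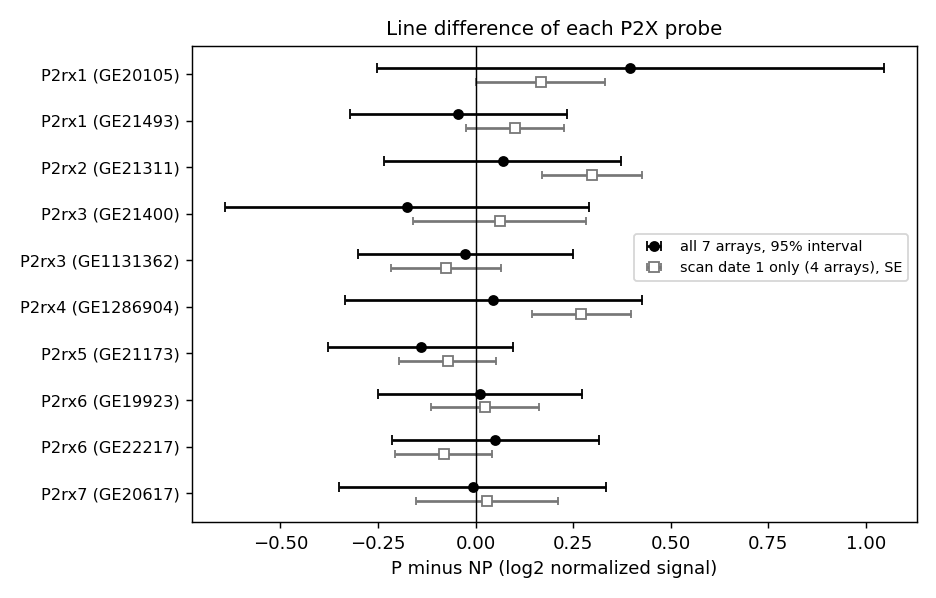
P minus NP difference in log2 normalized signal (x axis) for each P2X probe (y axis): black points are all 7 arrays with the 95% interval, open squares are the 4 arrays of scan date 1 with the SE. Every black interval crosses 0, the widest being that of P2rx1 probe GE20105 (-0.25 to 1.05).

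Probes of the same gene were not shown to track each other across rats. Pearson r over the 7 arrays was 0.089 for the P2rx1 probes (exact permutation p = 0.780), -0.32 for the P2rx3 probes (exact permutation p = 0.450) and 0.28 for the P2rx6 probes (exact permutation p = 0.569). Spearman rho was 0.18, -0.29 and 0.32 (exact permutation p of 0.713, 0.556 and 0.498). Without the 2 arrays farthest from the median r was 0.14, -0.18 and 0.59. With P2rx4 against P2rx7 and P2rx1 against P2rx5 (r = -0.21, exact permutation p = 0.631; rho = -0.14, exact permutation p = 0.783; r = 0.35 without the 2 farthest), 5 pairs were compared. The adjusted p was 0.780 for each r and 0.783 for each rho. In each of the 3 genes at least 1 probe lay among the negative controls.

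Among 4637 other named genes that were above background on all 7 arrays, those most like each member by Pearson r over the arrays were ranked as a description, with the highest of many values picked. P2rx4 was most like Surf6, a nucleolar protein gene (r = 0.99), and Pacs1, a sorting protein gene (r = 0.99). P2rx5 was most like Gabrg1, a GABA-A receptor subunit (r = 0.99), and Nr4a2, a nuclear receptor (r = 0.98). P2rx6 was most like Xkr8 (r = 0.97) and Cdk11b (r = 0.86), P2rx2 was most like Glmp (r = 0.96) and Nucb1 (r = 0.95), P2rx7 was most like Tgfbr3 (r = 0.95) and Acr (r = 0.90), and P2rx1 was most like Fbxo25 (r = 0.93) and Calca (r = 0.93). For P2rx4, 157 genes (3.39%) passed an r of 0.9, against 26 for P2rx5, 20 for P2rx2, 6 for P2rx1, 2 for P2rx7 and 1 for P2rx6. All points share the arrays and their scan dates. P2rx1 was ranked by its probe GE20105, whose highest value is the lone 7.91 in P 4, not shown by its second probe.

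The other genes of ATP signalling did not pass the test between the lines either. Of 43 listed genes 29 had a matched probe, all 29 were tested, and 0 were called by limma, where 0.176% of named genes were called. At an unadjusted p under 0.05 there were 4, which is near the 11.5% of all probes. Of the 29 differences 19 were above 0, with a median of 0.071 against 0.032 for all named genes.

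**Figure D4:**
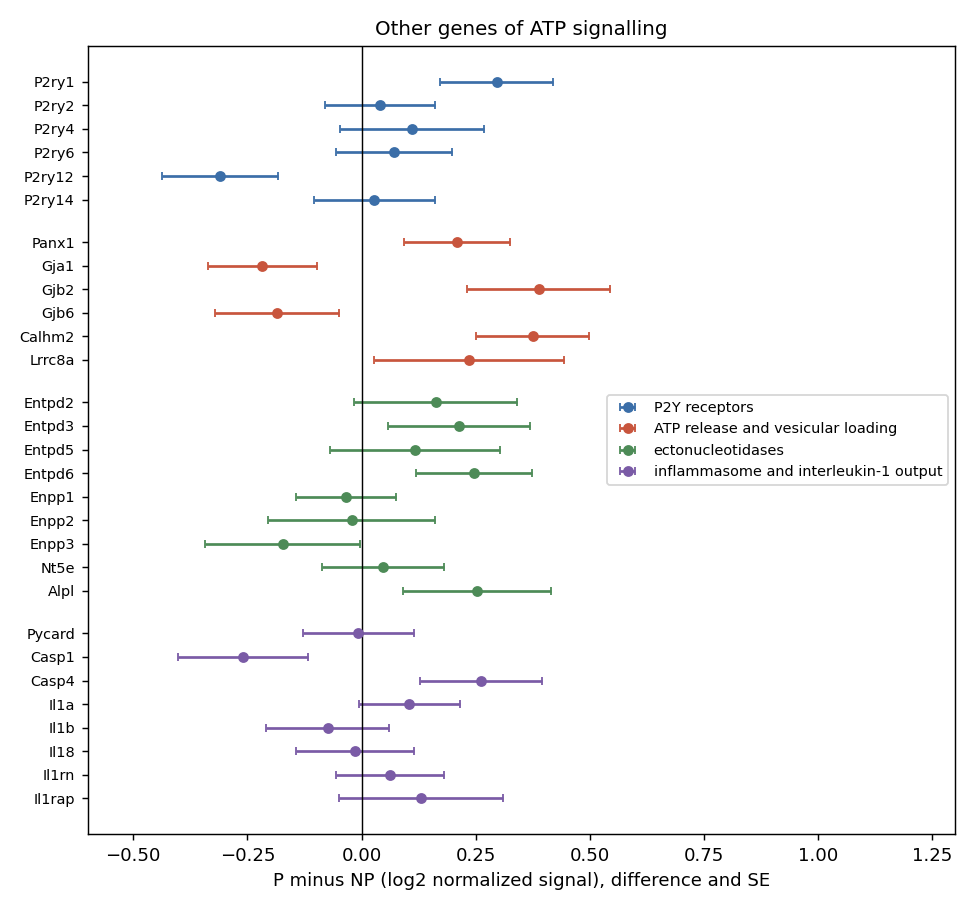
P minus NP difference in log2 normalized signal (x axis, point with SE) of the 29 tested genes of ATP signalling, coloured by list. The differences lie between -0.31 (P2ry12) and 0.39 (Gjb2), and 0 of them were called.

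Among the G-protein-coupled P2Y receptors 0 of 6 were called, with a median of 0.055. P2ry12, the ADP receptor that marks resting microglia, had the smallest p. It read 7.10, 7.33 and 7.25 in NP 2 to NP 4 and 7.04, 6.69, 7.00 and 6.94 in P 1 to P 4, so that all P rats lay below all NP rats (-0.31 ± 0.13, adjusted p = 0.406). The other 5 differences were above 0. For P2ry1 all P rats lay above all NP rats (0.30 ± 0.12, adjusted p = 0.412). Its probe was close to background, above it on 2 of 3 NP arrays and on all 4 P arrays.

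Among the channels of ATP release 0 of 6 were called, with a median of 0.22. Calhm2, a large-pore channel gene, had the smallest p. It read 6.77, 6.58 and 6.37 in NP 2 to NP 4 and 6.99, 6.91, 6.97 and 6.91 in P 1 to P 4, with no overlap (0.38 ± 0.12, adjusted p = 0.339).

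Among the ectonucleotidases, which break down ATP outside the cell, 0 of 9 were called, with a median of 0.12, and Entpd6 had the smallest p (0.25 ± 0.13, adjusted p = 0.468; 0.39 within scan date 1, adjusted p = 0.114). Among the inflammasome and interleukin-1 genes, the output of P2X7 in macrophages, 0 of 8 were called, with a median of 0.027. Only 5 of these 8 were above background on all 7 arrays. Casp4, an inflammatory caspase, had the smallest p there (0.26 ± 0.13, adjusted p = 0.466; 0.13 within scan date 1, adjusted p = 0.536). In all 29 genes the lines did not overlap for 4, where this was so for 13.3% of all probes with 7 values. Within scan date 1 and with scan date as a block 0 of the 29 were called, where 6.25% and 5.57% of named genes were.

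With 7 arrays small differences could not be resolved. In simulated arrays with the spread of the 29003 tested probes, the P against NP comparison found 13.7% of the probes moved by a log2 step of 0.5, 69.9% at a step of 1 and 98.2% at a step of 2. The same simulation gave 6.55% false calls. For P2rx2, P2rx4, P2rx6 (GE19923) and P2rx7, the probes brighter than at least 97.3% of negative controls on every array, the 95% intervals of the line difference lay between -0.35 and 0.43 in the fit without scan date. A block for scan date leaves the estimate to the 4 arrays of date 1. There the intervals of P2rx2 and P2rx4 lay higher, at 0.013 to 0.58 (adjusted p = 0.177 by limma) and -0.0082 to 0.55 (adjusted p = 0.206 by limma). The P2rx2 interval, which is not adjusted for the number of probes, left out 0. Those of P2rx6 (GE19923) and P2rx7 became wider, at -0.29 to 0.34 and -0.37 to 0.42.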

How the data were processed

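Biotin-labelled RNA from 7 whole brains was measured on 1-colour arrays, 1 rat per array per the series' design text; the titles gave line and replicate number, and each file header a date, called the scan date here. The deposited scanner tables give, per the file headers, spot and local background intensity for each probe, a background-subtracted intensity and a scaled intensity. The authors also deposited log2 values without stating how they were scaled in the text available; each column followed its own array's scanner values (r of 0.9985 or higher), and medians lay between -0.07 and 0.05. Any further adjustment between arrays stays unknown.

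With limma 3.58.1 in R 4.3.3, intensities were normexp-corrected (offset 50), stripped of controls (240 positive, 256 negative), set missing where outlier-flagged, and quantile normalized. Probes above background (no outlier or near-background flag) on at least 3 arrays were fitted with lmFit and eBayes, without a block, and adjusted by Benjamini-Hochberg over 29003 probes. Accessions without versions named 7207 probes through RefSeq (GRCr8); a listed gene was represented by its brightest probe. A call is an adjusted p under 0.05.

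The members, lists and alternatives were chosen with earlier results of these data known. Named are all members, the gene with the smallest p of each list where none was called, and the 2 genes most like each member above background on all 7 arrays. Nefm, Gfap, Aldh1l1, Kdr, Cd68, Itgam, Cnn1, Gjb2 and P2ry1 were named after their values were seen. Figures were drawn with matplotlib 3.10.9.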

Additional observations from a re-analysis of the deposited data

Results flagged for a closer look

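Among the 39 sets of P values tested for a sample far from the others (10 P2X probes and 29 genes of ATP signalling), 3 had one, where chance gives about 1 in 20 sets. Probe GE22217 of P2rx6 read 6.65 in P 4, against 6.46 to 6.47 in the other P rats. The ectonucleotidase gene Enpp1 read 7.08 in P 2, against 7.24 to 7.25. Nt5e, which makes adenosine from AMP outside the cell, read 8.20 in P 3, against 7.76 to 7.83. With 3 rats, NP was too small for this test.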

How the results depend on the processing

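The count of called P2X probes was 0 under all 19 alternatives, and so was that of the 29 genes of ATP signalling. Of 187 recomputed P2X line differences 159 kept their sign, 28 changed it, each at a size of 0.14 or less, and 0 passed (lowest adjusted p = 0.174, P2rx2 within scan date 1). The changed signs were, without background correction, 0.054 for GE21493 and -0.015 for GE22217, and, within scan date 1 or with the date as a block, 0.10 for GE21493, 0.061 for GE21400, -0.082 for GE22217 and 0.029 for P2rx7. With each array left out in turn, P2rx4 lay between -0.065 and 0.15, P2rx7 between -0.10 and 0.14, P2rx2 between -0.019 and 0.18, GE21493 between -0.098 and 0.034, GE1131362 between -0.11 and 0.027, GE21400 between -0.42 and -0.048, GE20105 between 0.087 and 0.57, P2rx5 between -0.17 and -0.11, GE19923 between -0.063 and 0.067, and GE22217 between -0.031 and 0.10. The replicate number as a block, to which P 1 adds nothing for want of an NP 1, changed P2rx4 to -0.029 and P2rx7 to 0.018 and called 102 probes of the array; same-numbered rats shared little (r of 0.097, 0.057 and 0.021), so the numbers were not taken to pair them. The 84 calls of the whole array became 51 in the authors' values, 49 for probes above background on all 7 arrays, 151 with array weights, 1659 with the date as a block and 1847 within date 1, and 51 to 121 with an array left out. The 4834 probes called between the P rats of dates 1 and 3 became 575 with plain subtraction, 4 in the authors' values and 11065 without scaling between arrays (0.994% of them higher in date 1, against 45.2%), and 394 (without P 2) to 4834 with an array left out (3048 without P 1, 1835 without P 3). The signs of P2X date differences changed with median scaling (0.18 for GE1131362, 0.16 for GE22217) and without scaling (-0.38 for P2rx2, -0.073 for P2rx4, -0.15 for P2rx5, -0.30 for P2rx7). With an array left out GE20105 ran from -1.14 (adjusted p = 0.0252, without P 3) to 0.30, GE21400 from -0.038 to 0.48 and GE19923 from -0.11 to 0.087. GE21493 was called with median scaling (0.51, adjusted p = 0.0330). The causes were not tested. Leaving out arrays in the date contrast, and leaving out scaling, were chosen after seeing the data.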
